A study of Mus musculus with 10 samples.

Results

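The Skint genes encode butyrophilin-like membrane proteins made by keratinocytes of the skin and by thymic epithelial cells of the mouse. Skint1 is required for the selection of the invariant γδ T cells that populate the mouse epidermis, known as dendritic epidermal T cells. In mouse skin wounds, Skint3 and Skint9 are known for their part in the signalling between keratinocytes and these T cells. The 10 genes described here, Skint1 to Skint10, were chosen by symbol as a family, with the condition that the deposited files list them. All 10 were listed in each of the 10 libraries, among 17983 genes listed in at least 1 library and 15987 listed in every library. All 10 passed the filter on low values.

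RNA was measured by sequencing in keratinocytes released by trypsin from the back skin epidermis of mice, after dispase had lifted the epidermis off the dermis. There were 3 knockout libraries under olive oil/acetone, 2 knockout libraries under water, 3 control libraries under olive oil/acetone and 2 control libraries under water. Knockout mice are labelled Gsdma1KO/KO;Gsdma3fx/fx;K14-Cre, a constitutive loss of gasdermin A1 together with loss of gasdermin A3 in cells that drive Cre from the keratin 14 promoter, and control mice are labelled wild type. Mixed acetone and olive oil, 4 parts to 1, or water was rubbed on the back 2 times a day for 3 days, and all groups were collected at day 5. The sources used here give neither the ages of the mice nor the number of animals behind a library. The p-values therefore reflect how far these libraries spread, and part of that spread may be technical.

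The libraries held 15914663 to 21812292 recovered reads. Gsdma3 had 1 read over the 3 knockout olive oil/acetone libraries and 3 reads over the 2 knockout water libraries, against 296 reads in control olive oil/acetone and 367 reads in control water. Gsdma, the gene of gasdermin A1, had reads in all groups, and whether they come from outside the deleted part was not tested, so it checks no label. The Y-linked gene Ddx3y had 1431 to 1892 normalised reads in knockout olive oil/acetone and 1885 to 2338 in control olive oil/acetone, but 0 reads in the knockout water and control water libraries. Treatment and a difference in Y-linked transcripts therefore cannot be told apart in any comparison of olive oil/acetone with water. Control water replicate 2 stood apart in 9 hair shaft and inner root sheath genes, with a summed level of 11355 against 397 in control water replicate 1. These sums ran from 549 to 2642 in knockout olive oil/acetone, from 387 to 440 in knockout water and from 375 to 647 in control olive oil/acetone. Krt5 and Krt14, the defining keratins of basal keratinocytes, had at least 211026 and 156510.2 normalised reads in every library.

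The 10 genes lie in 1 cluster on chromosome 4 of GRCm38, between the start of Skint8 at 111919392 and the end of Skint5 at 113999503. The order along the chromosome was Skint8, Skint7, Skint1, Skint4, Skint3, Skint9, Skint2, Skint10, Skint6 and Skint5. Skint9, Skint10, Skint6 and Skint5 lie on the minus strand and the other members on the plus strand. No other tested gene lies inside the cluster. Spata6 and Slc5a9 are the nearest tested genes before it, and Skint11 and Trabd2b the nearest after it.

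**Figure D1:**
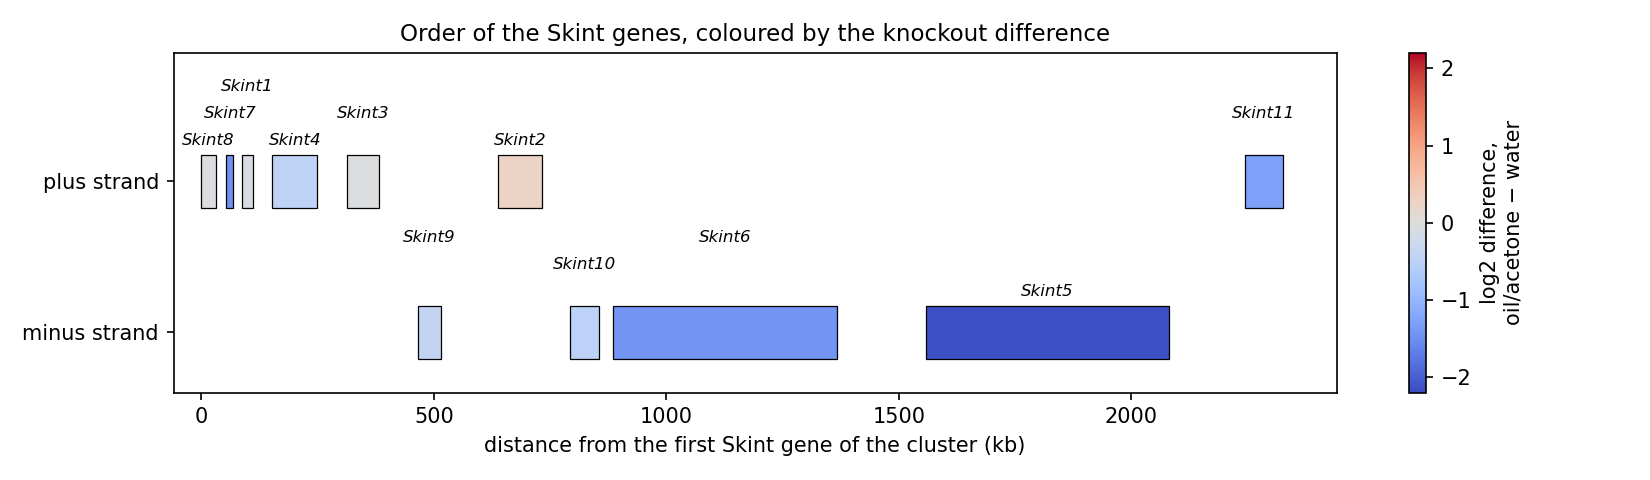
Positions of the 10 Skint genes and Skint11 along the cluster (x axis, kb from the start of Skint8) by strand (y axis), each box coloured by its fitted log2 difference between olive oil/acetone and water in knockout epidermis. Skint5, Skint6, Skint7 and Skint11 have the deepest blue boxes, at -2.16, -1.43, -1.46 and -1.28, and Skint7 lies between Skint8 at -0.05 and Skint1 at -0.09.

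Reads of near-identical family members can be divided differently by different counting rules. Of the 50-base stretches in the longest transcript, 9.68% in Skint8, 5.09% in Skint6 and 3.93% in Skint5 were also found in another gene, and the stretches of Skint5 were shared with Skint6. At 100 bases the share was 5.56% in Skint8, where the other gene was Skint7, and 0 in the other 9 members. The 0 of Skint7 covers its longest transcript of 1802 bases and not all of its 3989 exon bases. Reads of Skint7 and Skint8 can therefore also be divided differently. The sources used here do not give the strand setting of the counting, and only Skint6 shared exon bases with an overlapping gene, at most 63.

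The bases before the RefSeq start sites (GRCm38.p6) are shown for 2 pairs, because the members of each pair resemble each other there and because Skint5, Skint6 and Skint7 are the members that passed the test below. The windows of Skint5, chr4:113999504-113999753, and Skint6, chr4:113286974-113287223, both on the minus strand, cover the 250 bases before the start and were identical at 222 of 250 positions. Aligned over the whole windows, the next most alike pair, Skint10 and Skint11, had 57.8% identity. By best local match, other pairs were also alike. Skint10 and Skint11 were identical at 175 of 209 aligned positions, Skint4 and Skint3 at 153 of 195, and Skint9 and Skint10 at 99 of 117. Likeness before the start is therefore not particular to the 2 pairs shown. Capitals mark the 28 positions at which Skint5 and Skint6 differ.
Skint5: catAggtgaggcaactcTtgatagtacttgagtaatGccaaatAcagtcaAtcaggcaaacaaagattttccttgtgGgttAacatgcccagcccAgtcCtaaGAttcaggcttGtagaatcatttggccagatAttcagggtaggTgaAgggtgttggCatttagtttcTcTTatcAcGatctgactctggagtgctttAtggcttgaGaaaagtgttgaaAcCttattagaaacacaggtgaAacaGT
Skint6: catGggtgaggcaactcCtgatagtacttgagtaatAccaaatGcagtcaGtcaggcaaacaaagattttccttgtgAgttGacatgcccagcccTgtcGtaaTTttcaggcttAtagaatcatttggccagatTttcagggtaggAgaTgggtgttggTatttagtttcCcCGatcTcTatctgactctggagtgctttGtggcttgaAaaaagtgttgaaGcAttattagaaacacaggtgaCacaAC
By local match, Skint7 and Skint8, neighbours on the plus strand, shared a shorter block of 71 bases with 69 identical. It lies 72 to 2 bases before the RefSeq start of Skint7, chr4:111972855-111972925, and 250 to 180 bases before that of Skint8, chr4:111919305-111919375. These distances depend on the annotation. In GENCODE, the source of the cluster positions above, Skint8 starts at 111919392, inside this window and shortly after the block. Skint7 starts there at 111972923, within the last bases of the block. Capitals mark the 2 positions that differ.
Skint7: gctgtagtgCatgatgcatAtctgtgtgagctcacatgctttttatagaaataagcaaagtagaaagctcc
Skint8: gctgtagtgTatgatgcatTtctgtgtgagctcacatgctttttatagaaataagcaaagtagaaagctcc
The 10 members and Skint11 have 12 windows (Skint4 has 2 starts), and 4 motifs were searched on both strands, none of which contains another. TATAAA, the sequence of the TATA box, was found in 7 of the 12 windows, against 12.4% of the 32851 windows of all genes. Of these 7, only the window of Skint1 held TATAAA on the strand of the gene. The others held it on the reverse strand, so the 7 are not a count of TATA boxes in the direction of the gene. The AP-1 motif TGANTCA was found in 1 of the 12 windows against 6.75% of all, the GATA motif AGATAA in 1 against 9.99%, and GCGTG, the core motif of the aryl hydrocarbon receptor, in 1 against 28.2%. The windows of Skint5 and Skint6 held none of the 4 motifs, and the block shared by Skint7 and Skint8 held TATAAA on the reverse strand.

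Skint5, Skint6 and Skint7 fell in knockout epidermis under olive oil/acetone relative to water, and no member rose. Among all 15958 genes tested, 6.69% fell and 6.74% rose in this comparison. Calls here and below were made by limma, where the p adjusted over all genes (Benjamini-Hochberg) was below 0.05. In these bulk libraries, fewer cells of a type and less RNA per cell cannot be told apart.

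Skint5 had 135, 429 and 223 normalised reads in knockout olive oil/acetone, against 995 and 1117 in knockout water. In controls it had 355, 332 and 625 under olive oil/acetone and 465 and 571 under water. The 3 knockout olive oil/acetone libraries lay below both knockout water libraries, while the control ranges overlapped. The fitted log2 difference in knockouts was -2.16 ± 0.42 (SE; limma adjusted p = 0.0169), with means of 262 ± 151 (SD, n = 3) under olive oil/acetone and 1056 ± 86.2 (SD, n = 2) under water.

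Skint6, the neighbour of Skint5 with the similar window, had 358, 763 and 417 normalised reads in knockout olive oil/acetone, against 1237 and 1389 in knockout water. In controls it had 557, 652 and 880 under olive oil/acetone and 627 and 718 under water. Again the knockout groups were apart and the control groups overlapped. The log2 difference in knockouts was -1.43 ± 0.30 (SE; limma adjusted p = 0.0207).

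Skint7 had 336, 516 and 451 normalised reads in knockout olive oil/acetone, against 1298 and 1071 in knockout water. In controls it had 939, 886 and 1170 under olive oil/acetone and 1072 and 1015 under water. The 3 knockout olive oil/acetone libraries were the lowest of all 10 libraries, below every control library as well. The log2 difference in knockouts was -1.46 ± 0.21 (SE; limma adjusted p = 0.00796), and the mean under olive oil/acetone was 36.7% of that under water.

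These 3 were the members whose knockout groups did not overlap, a pattern shown in the lower direction by 29.2% of all genes tested. The calls rested on few libraries. Without knockout olive oil/acetone replicate 3 only Skint7 was called, and without knockout water replicate 1 or replicate 2 no member was, with log2 differences of the 3 genes between -2.60 and -1.22 over all alternatives. The counts of called genes over the whole table fell as well, to 240, 9 and 35 without those 3 libraries, against 2143 with all libraries.

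**Figure D2:**
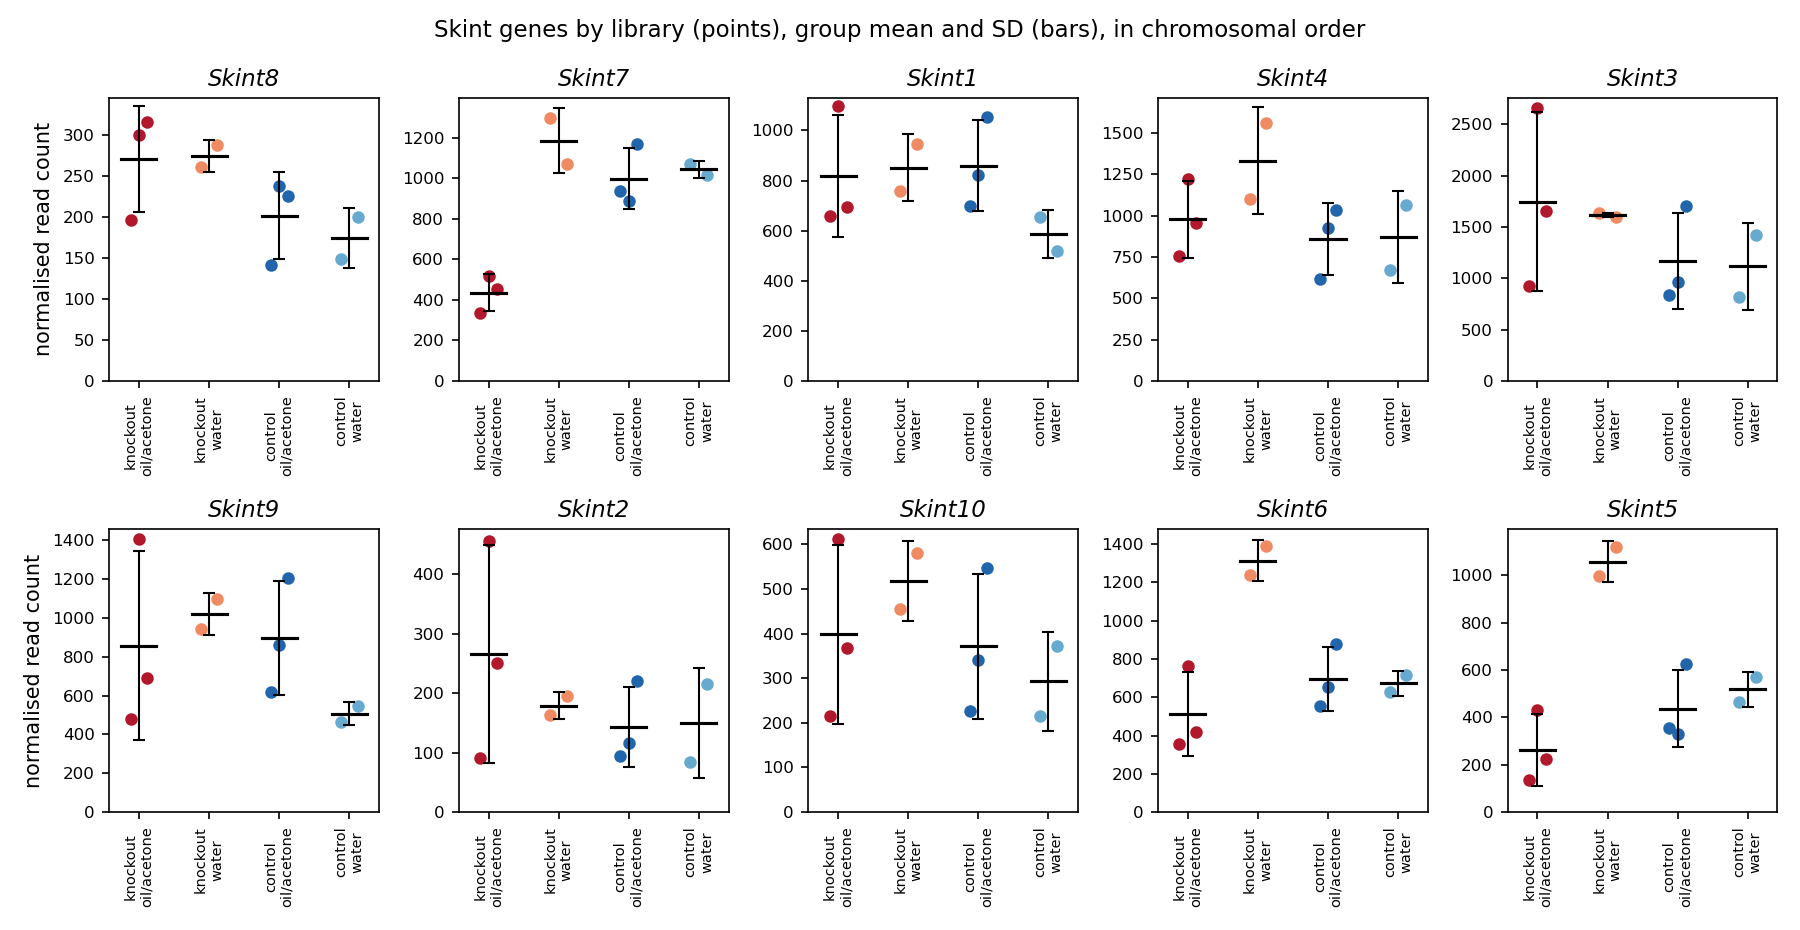
Normalised read counts (y axis, linear from 0) of the 10 Skint genes in each library (points) by group (x axis), with group means and SDs as bars. In Skint5, Skint6 and Skint7 the knockout olive oil/acetone points lie below both knockout water points, and in the other 7 members these knockout groups overlap.

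The remaining 7 members did not pass the test in knockouts. Skint1, the gene required for T cell selection, had 658, 1099 and 695 normalised reads in knockout olive oil/acetone, against 757 and 946 in knockout water, a log2 difference of -0.09 ± 0.26 (SE). Skint8, next to Skint7, had 197, 300 and 316 in knockout olive oil/acetone, against 261 and 288 in knockout water, a log2 difference of -0.05 ± 0.29 (SE). Both lie beside Skint7 on the chromosome, and their knockout groups overlapped.

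Skint3 had 924, 2660 and 1655 normalised reads in knockout olive oil/acetone, against 1632 and 1601 in knockout water. Skint9 had 478, 1404 and 688 in knockout olive oil/acetone, against 943 and 1095 in knockout water. In Skint3, 2 of the 3 knockout olive oil/acetone libraries lay above both knockout water libraries, in Skint9 2 of 3 lay below them, and the log2 differences were -0.02 ± 0.42 in Skint3 and -0.39 ± 0.39 in Skint9 (SE).

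Skint2 ran from 91.1 to 455 in knockout olive oil/acetone and from 163 to 195 in knockout water, a log2 difference of 0.29. Skint4 ran from 755 to 1221 in knockout olive oil/acetone and from 1102 to 1562 in knockout water, a log2 difference of -0.45. Skint10 ran from 215 to 613 in knockout olive oil/acetone and from 455 to 581 in knockout water, a log2 difference of -0.49. In each of these genes the olive oil/acetone range overlapped the water range. The median over the 10 members was -0.42, against 0.01 over all genes tested. It was -0.08 without knockout olive oil/acetone replicate 1, with 6 of 10 differences negative, -0.73 without replicate 2 of that group and -0.24 without knockout water replicate 2. With all libraries 9 of the 10 differences were negative, and 6 were when libraries were scaled to equal totals, which moved the median of all genes to 0.13.

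Skint11, the next gene beyond Skint5 and not a member, had 191, 409 and 179 normalised reads in knockout olive oil/acetone, against 499 and 687 in knockout water. It fell by 1.28 on the log2 scale (limma adjusted p = 0.0427). The other neighbours of the cluster did not pass the test, with log2 differences of 1.996 in Slc5a9, -0.09 in Spata6 and 0.02 in Trabd2b.

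In control epidermis no member was called between olive oil/acetone and water, and no member had an unadjusted p under 0.05 by limma. Among all genes tested 0.0627% were called. edgeR and DESeq2 also called no member. Skint1 had 699, 823 and 1056 normalised reads in control olive oil/acetone, against 654 and 519 in control water. Skint9 had 619, 861 and 1206 in control olive oil/acetone, against 463 and 547 in control water. These were the 2 members whose control groups did not overlap, both higher under olive oil/acetone, as were 12.2% of all genes tested. The log2 difference was 0.54 ± 0.26 in Skint1 and 0.78 ± 0.39 in Skint9 (SE; limma adjusted p = 0.407 and 0.439).

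The other members overlapped between the control groups. Skint3 ran from 836 to 1707 in control olive oil/acetone and from 819 to 1417 in control water. Skint4 ran from 613 to 1034 in control olive oil/acetone and from 673 to 1065 in control water. For Skint8 the range was 141 to 238 in control olive oil/acetone and 149 to 200.5 in control water. In these 3 genes neither group lay wholly above the other. Skint2 ran from 93.6 to 220 in control olive oil/acetone and from 83.6 to 215 in control water. Skint10 ran from 226 to 547 in control olive oil/acetone and from 215 to 372 in control water. The median log2 difference of the 10 members in controls was 0.04, and its sign depended on single libraries. It was 0.39 without control water replicate 2 and -0.08 without control water replicate 1. Leaving out control olive oil/acetone replicates 1, 2 and 3 in turn gave 0.25, 0.08 and -0.16.

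**Figure D3:**
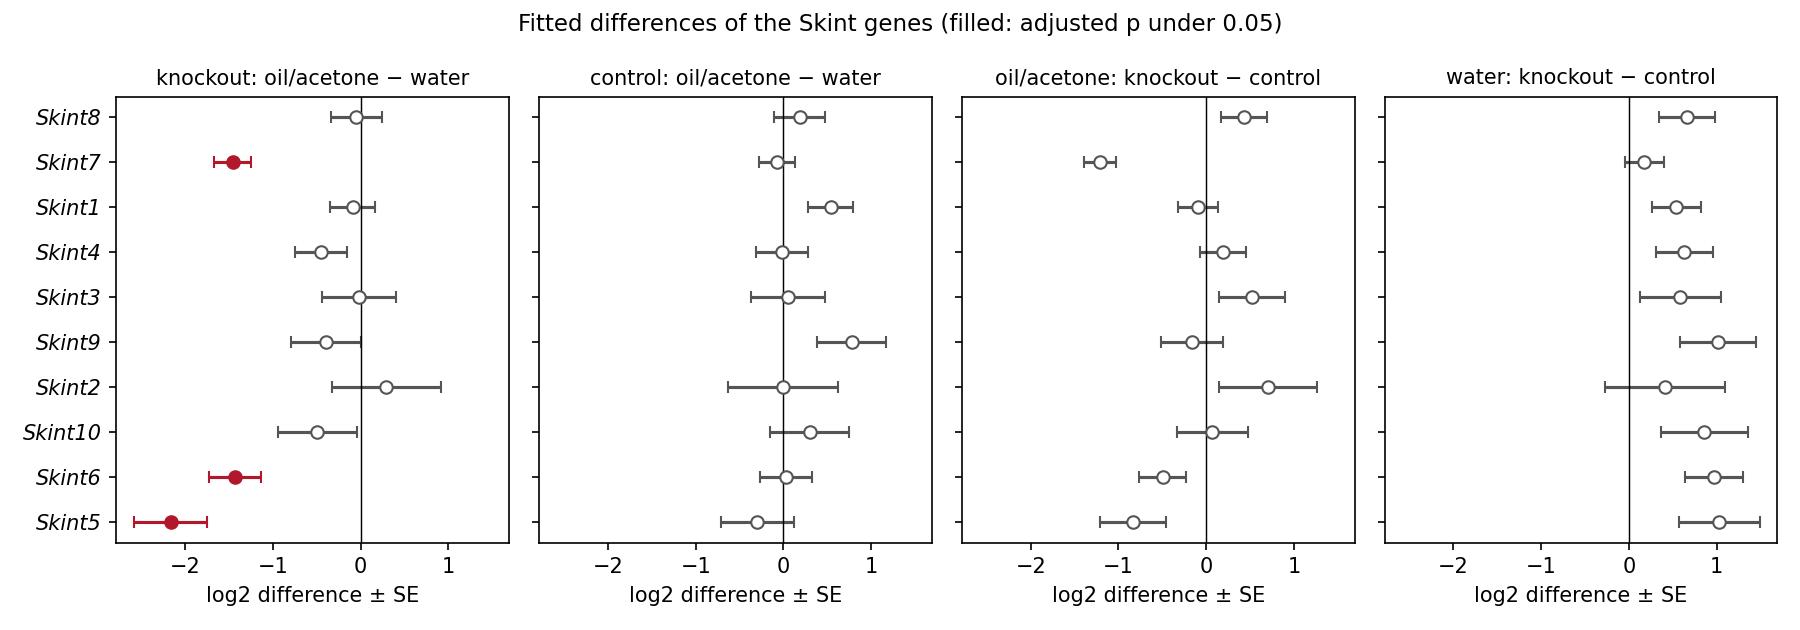
Fitted log2 differences with SEs (x axis) of the 10 Skint genes in chromosomal order (y axis) for the 4 comparisons, with filled points for adjusted p under 0.05. The filled points are Skint5, Skint6 and Skint7 in knockout epidermis, and in the comparison under water all 10 points lie to the right of 0.

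Under olive oil/acetone no member was called between knockout and control, and neither was any other gene by limma (0.0% of genes, with 1908 below 0.05 before adjustment, 0 calls by edgeR and 168 by DESeq2). Skint7 was the only member whose groups did not overlap, with the values given above and a log2 difference of -1.21 ± 0.18 (SE; limma adjusted p = 0.214). In the lower direction 8.23% of all genes tested did not overlap. DESeq2 called Skint7, in a comparison in which it called 0.445% of genes lower, and limma called it when knockout olive oil/acetone replicate 1 was left out (adjusted p = 0.0497). Skint5 had a log2 difference of -0.83 ± 0.37 and Skint6 of -0.49 ± 0.27 (SE), and in both the groups overlapped.

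Under water no gene was called by limma between knockout and control (0.0% of genes, with 795 below 0.05 before adjustment, 0 calls by edgeR and 6 by DESeq2, none of them a member). All 10 log2 differences were positive, from 0.18 in Skint7 to 1.03 in Skint5, with a median of 0.65 against -0.01 over all genes. In 8 members the 2 knockout libraries lay above the 2 control libraries, as in 16.9% of all genes tested, and the exceptions were Skint2 and Skint7. Skint5, Skint6 and Skint9 had unadjusted p under 0.05 with log2 differences of 1.03 ± 0.46, 0.97 ± 0.33 and 1.01 ± 0.43 (SE; limma adjusted p = 0.963 for each). Without control water replicate 2, the library with the high hair keratins, the 10 differences were again positive and their median was 1.02. Without control water replicate 1, 9 were positive and the median was 0.46.

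The interaction, which tests whether the difference between olive oil/acetone and water itself differed between knockout and control, called no gene by limma (0.0% of genes, with 1897 below 0.05 before adjustment, 0 calls by edgeR and 196 by DESeq2). The fitted interactions were -1.87 ± 0.59 in Skint5, -1.46 ± 0.42 in Skint6 and -1.39 ± 0.29 in Skint7 (SE; limma adjusted p = 0.359, 0.356 and 0.356). DESeq2 called Skint7 (adjusted p = 0.00777), in a test in which it called 0.251% of genes lower. A fall in knockouts that was called and a difference in controls that was not are therefore not shown by limma to differ from each other.

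Summed over the 10 genes, the level was 4147, 9459.8 and 6016 normalised reads in knockout olive oil/acetone and 8843 and 9845 in knockout water, and 5079.6, 6136 and 8670.3 in control olive oil/acetone and 5219.6 and 6639 in control water. Knockout olive oil/acetone held the lowest sum of the 10 libraries and also a sum between those of the knockout water libraries. Skint5, Skint6 and Skint7, 3 genes put together after their values were seen, made up 19.99%, 18.1% and 18.1% of the sum in knockout olive oil/acetone, against 39.9% and 36.3% in knockout water. In controls they made up 36.4%, 30.5% and 30.9% under olive oil/acetone and 41.4% and 34.7% under water. No test was made of this share.

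**Figure D4:**
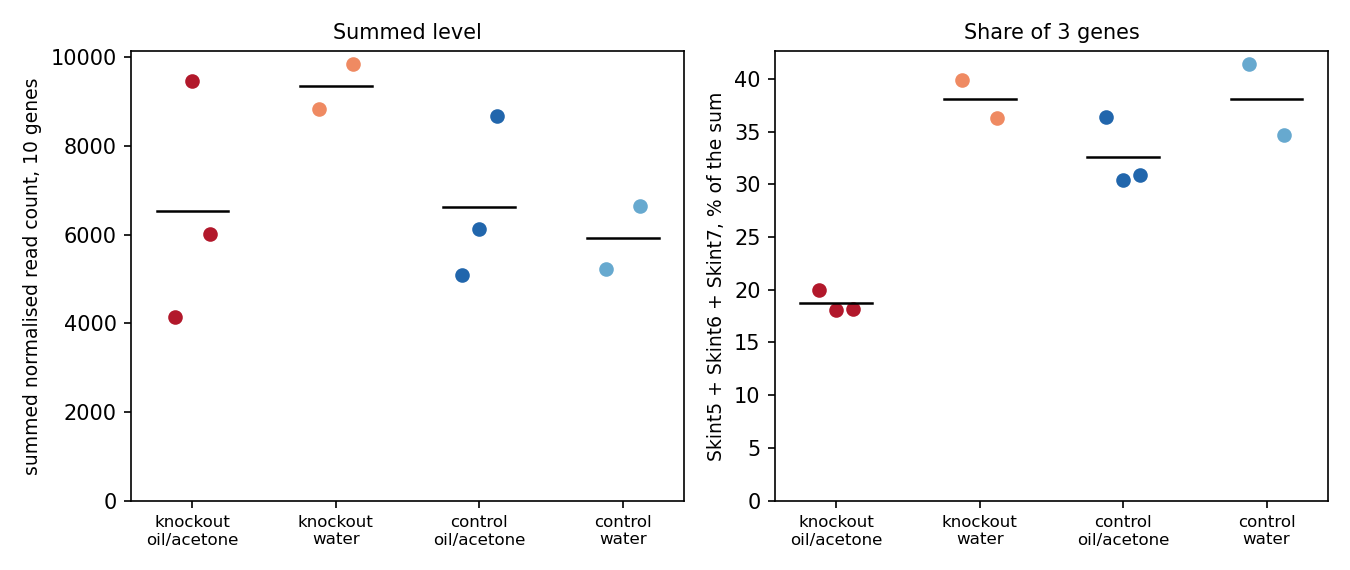
Summed normalised read count of the 10 Skint genes (left, y axis) and the percentage of that sum in Skint5, Skint6 and Skint7 (right, y axis) by group (x axis), with a point for each library and a line at the group mean. The knockout olive oil/acetone sums, 4147 to 9459.8, overlap those of each other group, while the 3 knockout olive oil/acetone shares, 18.1% to 19.99%, lie below the 7 others, 30.5% to 41.4%.

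The ratio of Skint7 to Skint1, 2 genes close together on the same strand, is given as a description, since both were picked for it after their values were seen. It was 0.511, 0.470 and 0.649 in knockout olive oil/acetone, against 1.72 and 1.13 in knockout water. In controls it was 1.34, 1.08 and 1.11 under olive oil/acetone and 1.64 and 1.95 under water.

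Per kb of exon, a scale on which genes can be compared, Skint9 was the highest member with a mean over the 10 libraries of 605 normalised reads per kb, followed by Skint3 at 370, Skint1 at 262, Skint4 at 227, Skint7 at 219 and Skint6 at 199. Skint5 had 114, Skint10 105, Skint2 78.9 and Skint8 49.8 per kb. Skint9 was above Skint3, and Skint6 above Skint5, in 10 of 10 libraries. Skint4 was above Skint7 in 4 of 10 libraries and Skint5 above Skint10 in 5 of 10. The order also differed between groups. Skint9 had the highest group mean per kb in all 4 groups. Skint5 had the lowest mean of the 10 members in knockout olive oil/acetone, at 57.1 per kb, against 230.0 in knockout water. Skint7 averaged 109 per kb in knockout olive oil/acetone, below Skint2 at 111, against 297 in knockout water, above Skint1 at 283. Skint6 averaged 134 per kb in knockout olive oil/acetone, against 343 in knockout water, where it was the third highest member. The lowest count of a member in a library was 87 reads (Skint2 in control water replicate 1, exact Poisson 95% interval 69.7 to 107).

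Across the 10 libraries, on the log2(value + 1) scale, Skint5 and Skint6 varied most alike together with Skint2 and Skint3 (Pearson r = 0.97 for each pair, Spearman rho = 0.92 and 0.93). Skint7 followed Skint5 (r = 0.84) and Skint6 (r = 0.75), but not Skint1 (r = 0.06), Skint2 (r = -0.12), Skint3 (r = -0.06) or its neighbour Skint8 (r = -0.24). Skint5, Skint6 and Skint7 were picked by their group differences in these libraries, so their likeness here is no separate result. With each group's mean removed, all pairs had positive correlations, the lowest being 0.37 for Skint4 and Skint7, and Skint7 and Skint8 had 0.45. Skint6 then had 0.99 with Skint9 and 0.73 with Skint7. These are descriptions over 10 libraries that share their group differences and depth.

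**Figure D5:**
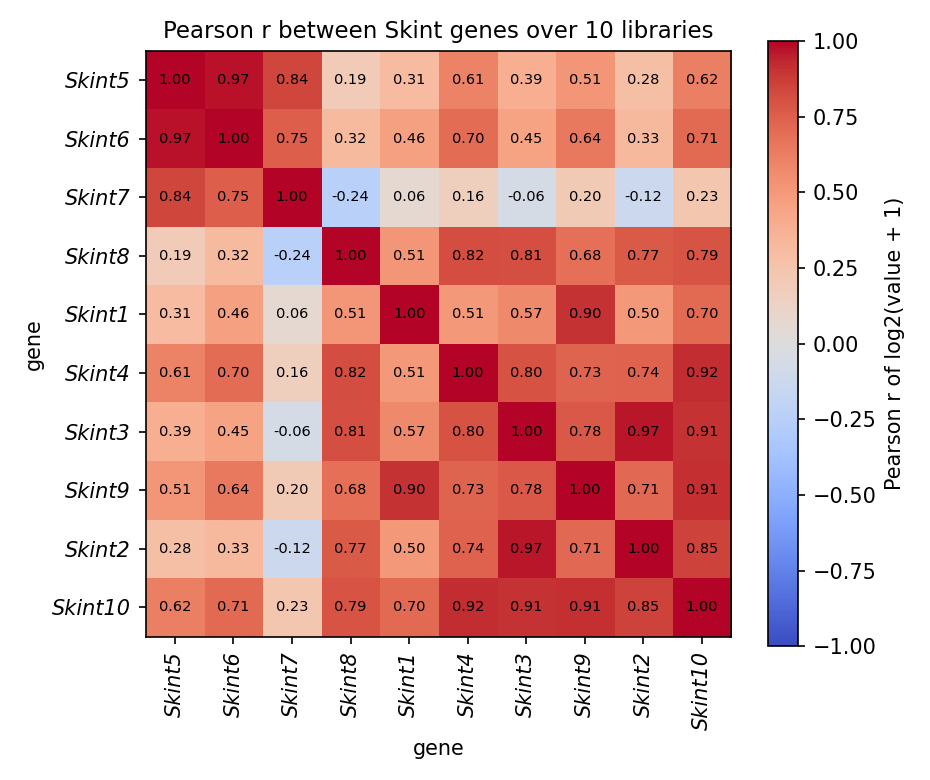
Pearson r between the 10 Skint genes on the log2(value + 1) scale over the 10 libraries (both axes, genes; colour and printed number, r). Skint5, Skint6 and Skint7, placed first because they passed the test in these same libraries, have r of 0.75 to 0.97 with each other. Pairs outside them reach similar r, such as Skint4 and Skint10 (0.92) and Skint9 and Skint10 (0.91). Skint7 is near or below 0 with Skint1, Skint2, Skint3 and Skint8.

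Among 11452 other genes with a mean of 50 or more, those whose levels most resembled the mean of the scaled Skint profiles over the 10 libraries were Dsg1a, a desmosomal cadherin of differentiating keratinocytes (r = 0.95, rho = 0.92), and Ap1b1, a subunit of a clathrin adaptor (r = 0.95). They were followed by Rhov, Fcamr, Mall, Ralgapa2, Zfp35 and Alox12, a 12-lipoxygenase, with r of 0.93 to 0.95. Genes with an opposite pattern included Arhgef1 (r = -0.97), Parp8 (r = -0.91) and Fam49b (r = -0.88). These are extremes among 11452 genes over 10 libraries that share group differences, and no test was made of them. The profile also averages members that vary differently, such as Skint7 and Skint8 (r = -0.24).

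Genes of the cells that face the Skint proteins were examined in the same comparison of knockout epidermis. Of 20 tested epidermal T cell genes, 0 rose and 0 fell by the test. Their log2 differences were positive in 11 and negative in 9, with a median of 0.08. In controls, olive oil/acetone against water, 2 were positive and 18 negative, with a median of -0.95. All 20 interactions were positive, with a median of 0.79, and 0 genes were called in controls or in the interaction. Trdc, a T cell receptor constant gene, had 1591, 1072 and 2122 normalised reads in knockout olive oil/acetone, against 2753 and 2546 in knockout water. In the same groups Il2rb had 3222, 1996 and 3036 against 6612 and 6033, and Trdv4 had 569, 320 and 707 against 1115 and 993. Fgf10 went the other way at low values, with 1.03, 19.8 and 31.1 against 0 and 0. The summed level of the T cell genes was 14935 to 22521 in knockout olive oil/acetone and 23685 to 25358 in knockout water, against 10605 to 29801 in control olive oil/acetone and 26452 to 49394 in control water. Under water, knockout against control, all 20 T cell genes had negative log2 differences with a median of -0.66 and 0 were called, while the 10 Skint differences were positive. The T cell sum of control water replicate 1, the higher of the 2 control water libraries, lies far above that of every other library. Of 12 tested ligands that keratinocytes present or release to T cells, H60c, a ligand of the receptor NKG2D, rose (log2 difference 1.17 ± 0.27, SE; limma adjusted p = 0.0269). In controls the log2 difference of H60c was 1.15 ± 0.27 (SE; limma adjusted p = 0.172), and its interaction was 0.02 ± 0.38 (SE). Cdh1, the gene of E-cadherin, fell in knockouts (-0.97 ± 0.23, SE; limma adjusted p = 0.0275). Of 6 genes of the aryl hydrocarbon receptor pathway, 0 passed the test, and Ahr itself had a log2 difference of -0.61 ± 0.22 (SE).

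Markers of keratinocyte layers moved in the same comparison as Skint5, Skint6 and Skint7. Of 10 basal genes 3 fell, Krt15 (-0.91), Trp63 (-0.99) and Dst (-1.37), and 0 rose, with 8 log2 differences negative and 2 positive. The defining keratins Krt5 and Krt14 were not called. Their means were 277196 and 247171 in knockout olive oil/acetone, against 259619 and 165693 in knockout water. The summed level of the 10 basal genes was 534308 to 901331 in knockout olive oil/acetone, against 660019 to 682930 in knockout water. Of 10 suprabasal genes 4 rose, among them Krt1 (1.92), and 3 of 10 granular genes rose, among them Flg (4.15), which encodes filaggrin. The suprabasal sum was 391205 to 730948 in knockout olive oil/acetone, against 286688 to 323765 in knockout water. The granular sum was 29349 to 92100.2 in knockout olive oil/acetone, against 17683 to 24256 in knockout water. Of 8 genes of stressed keratinocytes 4 rose, with a sum of 108558 to 203509 in knockout olive oil/acetone, against 62093 to 87592 in knockout water. In controls, olive oil/acetone against water, all 10 granular and all 10 suprabasal differences were positive and 0 were called. Their medians were 1.49 and 0.61, against 1.42 and 0.24 in knockouts. The control differences were 3.41 in Flg and 1.61 in Krt1, with interactions of 0.74 ± 0.82 and 0.32 ± 0.52 (SE). The basal median was 0.21 in controls and -0.83 in knockouts. The part of these layers in the result on the Skint genes was not tested.

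Markers of other cells moved too. Of 5 red blood cell genes 5 rose, with a summed level of 14407 to 27549 in knockout olive oil/acetone against 1176 to 2544 in knockout water, and 2 of 6 endothelial genes rose, with sums of 321 to 478 in knockout olive oil/acetone against 71.4 to 196 in knockout water. Of 8 outer root sheath genes 3 rose, with sums of 63683 to 121605 in knockout olive oil/acetone against 32294 to 36399 in knockout water. Of 8 fibroblast genes 1 fell, Lum, with sums of 3368 to 8087 in knockout olive oil/acetone against 6636 to 10080.4 in knockout water. None of 8 Langerhans cell, 9 hair shaft, 6 melanocyte or 5 skeletal muscle genes passed the test. The hair keratin Krt71 was at 0 in control water replicate 1, and the endothelial gene Cdh5 was at 0 in knockout water replicate 1. Their part in the result was not tested.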

How the data were processed

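Keratinocyte RNA of 10 libraries was analysed from the deposited files, 1 normalised read signal per gene and library (count divided by a size factor). Per the submitters' processing notes, the authors' tools included Trimmomatic 0.38, featureCounts 2.0.0 and DESeq2 1.26.0, on GRCm38 (mm10). The sources used here do not give the aligner or the annotation. Every deposited value was a whole multiple of the value of 1 read (100% of values, tolerance 0.1 read), so whole reads were recovered, and intervals on them cover counting error only.

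Identifiers were matched to GENCODE symbols of GRCm38 (17983 of 17983). Libraries were divided by median-of-ratios factors (0.995 to 1.004). The 15958 genes kept were listed in all files and reached 10 in 2 or more libraries. Differences were tested two-sided on log2(value + 1) with limma 3.58.1 (R 4.3.3, eBayes with trend) in 1 model of 4 group means over 10 libraries, with Benjamini-Hochberg adjustment over all genes tested and a threshold of 0.05. On this scale, changes of low genes are understated. The comparisons within a genotype or treatment share libraries. Windows were compared with Biopython 1.88. The fit was tested on simulated data in which few genes changed. Of changes of 2 log2 units it recovered 89% in the knockout comparison, 74% under water and 56% in the interaction. Of changes of 1 log2 unit it recovered 37%, 16% and 4%. Changes of this size can therefore be missed where 0 members were called. Alternatives were pseudocounts of 0.5 and 8, no filter, the values as deposited, equal totals, a replicate block, the groups compared alone, edgeR 4.0.16, DESeq2 1.42.0 and leaving out each library. The members, the gene lists and the rule for named genes (all members, the neighbours, the targeted genes, the genes most and least like the family profile, and of each list its first 2 genes and the 3 with the lowest p, or all of up to 6) were chosen with earlier results of these data known. A gene that this rule names is not reported here.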

Additional observations from a re-analysis of the deposited data

How the results depend on the processing

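The count of called Skint genes in knockout epidermis, olive oil/acetone against water, was 3, and it ranged from 0 to 3 when each library was left out (1 without knockout olive oil/acetone replicate 3, 0 without knockout water replicate 1 or 2, where the lone water library is assumed to vary like the other groups). With a replicate block it was 4, adding Skint4 (limma adjusted p = 0.0497). Replicate numbers are not stated to pair libraries, and same-numbered libraries had correlations of deviations from -0.105 to 0.45. Under olive oil/acetone, knockout against control, the count was 0, but 1 (Skint7) with DESeq2, and 0 to 1 when each library was left out, the 1 coming without knockout olive oil/acetone replicate 1. In the interaction it was 0, but 1 (Skint7) with DESeq2. The other 2 comparisons had 0 called members in all alternatives run. The groups compared alone gave no interaction value. No log2 difference called by limma changed sign. Over the whole table, the knockout comparison called 2143 genes, against 3626 with DESeq2, 3865 with the groups compared alone (3884 among genes listed in their own files) and 9 to 3130 when each library was left out. With equal totals 1346 rose and 845 fell, against 1076 and 1067. The control comparison called 10 genes, against 354 with DESeq2, 58 with the replicate block and 6 to 470 when each library was left out. In the comparisons with 0 called genes, leaving out a library gave up to 50 under olive oil/acetone (without knockout olive oil/acetone replicate 1), 74 in the interaction (without control water replicate 1) and 1 under water (without control water replicate 2). The groups compared alone gave 3 under olive oil/acetone. The causes of these shifts were not tested.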
